A study of Drosophila melanogaster with 14 samples.

Results

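The element that FlyBase names '1360', also called hoppel, is a DNA transposon of Drosophila melanogaster, and its copies were followed here in RNA of fly heads. A table of read counts per transposable element (TE) insertion listed 5392 insertions, and the 303 whose FlyBase symbol has '1360' as the family name before the brace were taken as the copies of the family. By number of listed insertions hoppel was family number 2 in the table, after INE-1 with 2234, and 5.62% of all insertions were hoppel copies. The rule for membership uses the name alone, while the family itself was picked for description with earlier results of these data known. The family is called hoppel in what follows, and single copies are called by their FlyBase insertion identifiers.

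The libraries came from heads of flies labelled tau transgenic and of control flies labelled wild type. Tau is the microtubule-binding protein that aggregates in Alzheimer's disease and other tauopathies. There were 3 total RNA libraries per genotype, each made with 500 ng of RNA from a pool of 6 heads, so 18 heads per genotype. The sources used here state neither the tau form, the driver of the transgene, the age nor the sex of the flies, and the series text calls the libraries of a genotype independent biological replicates. The table held TE insertions only, so the tissue could not be checked against head markers. In heads, which mix many cell types, fewer cells of a type and less RNA per cell cannot be told apart.

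DNA transposons move by excision and reinsertion, carried out by a transposase that binds the inverted repeats at the ends of the element. Hoppel belongs to the superfamily of the P element, and most of its copies are truncated or lack a working transposase gene, so they depend on enzyme made elsewhere or no longer move. Its copies are frequent in the heterochromatin near centromeres and along chromosome 4, and hoppel is known as an element beside which reporter genes can be silenced by heterochromatin formation. Reads of a hoppel copy can stem from its own transcription or from the transcript of a gene that contains it, and the counts do not separate the sources.

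The TE table held 232572 to 289818 counts per control library, and 76721, 269102 and 331009 counts in tau 1, tau 2 and tau 3. Of these, 4238, 3502 and 3159 counts fell in hoppel copies in control 1, 2 and 3, and 873, 3345 and 4152 in tau 1, 2 and 3. The library tau 1 was thus shallow, with under 1000 counts for the whole family. In all 6 libraries together hoppel held 19269 of 1476637 TE counts, or 1.30%, and was family number 24 by counts. Near-identical copies may share reads, and how reads that match several copies were counted is not given in the sources used here, so the family sum is the safer unit and values of single copies are uncertain. No copy lengths were used, so counts of different copies reflect length as well as transcription.

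The first question was whether RNA of the whole family differed in tau heads. The summed hoppel level, in CPM (counts relative to the TE total of the library after scaling with TMM factors), was 14288, 12348 and 13055 in control and 11528, 12758 and 13130 in tau. The groups overlapped, with tau 1 lowest and control 1 highest. The mean was 13231 ± 982 CPM in control (SD, n = 3) and 12472 ± 838 in tau (SD, n = 3). The log2 fold change of tau over control was -0.08 ± 0.073 (SE), with a 95% interval of -0.25 to 0.09 and an adjusted p of 0.453 in edgeR's quasi-likelihood test over 116 families, and it was 0.0037 with copia left out of the library totals. As a ratio, the interval reached from 0.839 to 1.06 under TMM scaling, so a fall below 0.839 times or a rise above 1.06 times the control level lay outside it. These bounds moved with the scaling. The 95% interval of the log2 fold change was -0.39 to 0.07 with the authors' size factors and -0.33 to -0.0038 with library totals. With copia left out of the totals it was -0.17 to 0.18. Of the 116 families, 36 passed the threshold of 0.05 (31.0%), and hoppel was not among them.

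As a share of all TE counts, hoppel made up 1.46%, 1.26% and 1.36% in control 1, 2 and 3, with exact binomial 95% intervals from 1.22% at the lowest to 1.51% at the highest bound. In tau 1, 2 and 3 the share was 1.14%, 1.24% and 1.25%, within bounds of 1.06% and 1.29%. All 3 tau libraries were below all 3 controls, but control 2 and tau 3 lay next to each other. The mean share was 1.36% ± 0.10 in control and 1.21% ± 0.064 in tau (exact permutation p = 0.1, two-sided, the smallest that 3 against 3 allows, and 0.325 adjusted over the 13 measures compared in this way). The 13 include the ratio of hoppel to the family transib4, which was picked because its fall was known. Its exact permutation p of 0.1 enters the adjustment, so the adjusted values lean on it in part. The share depended on copia, the LTR retrotransposon with the most counts in the table: with copia left out of the denominator it was 1.55%, 1.34% and 1.43% in control and 1.32%, 1.46% and 1.54% in tau. The groups then overlapped throughout, and the means were 1.44% ± 0.107 and 1.44% ± 0.112 (exact permutation p = 1). Counting intervals cover counting error only, since the reads carry no molecular identifiers.

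**Figure D1:**
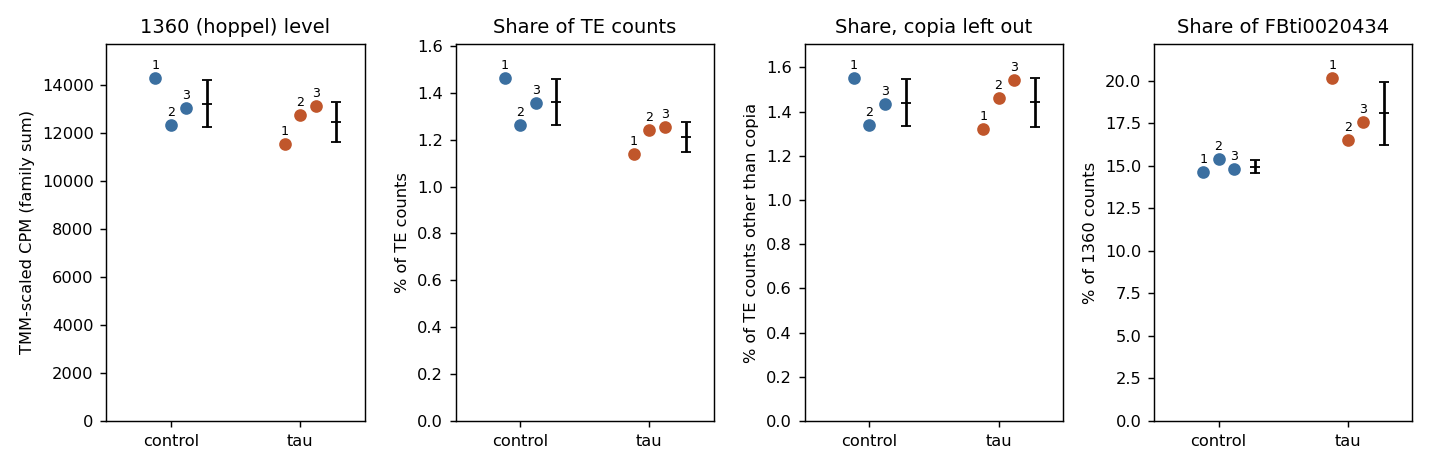
Each point is a library, numbered as in the labels, and the bar beside each group is its mean with SD (n = 3). The plots carry the FlyBase name '1360' for hoppel. From left to right the axes give the hoppel family sum in TMM-scaled CPM, its share of TE counts in percent, its share of TE counts other than copia in percent, and the share of hoppel counts held by the copy FBti0020434 in percent. The shares of TE counts do not overlap (1.26% to 1.46% in control, 1.14% to 1.25% in tau), and without copia they do.

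The second question was how many of the 303 copies gave reads. At least 1 count in any library was present for 174 copies (57.4%), against 58.2% of all other insertions, and 129 copies had 0 counts in all 6 libraries. The other insertions include the 2234 INE-1 copies, of which 42.4% had a count. Without INE-1 the share of the other insertions is therefore above 58.2%, so hoppel lies further below it. A count in every library was found for 86 copies, and 88 had counts in 1 to 5 libraries, 25 of these in a single library. In the single libraries 137, 133 and 130 copies had a count in control and 100, 132 and 143 in tau. These numbers moved with depth, so each library was also thinned, by calculation, to the 76721 TE counts of tau 1. At that depth 117, 109 and 112 copies were expected with a count in control 1, 2 and 3, and 100, 112 and 112 in tau 1, 2 and 3. The means were 113 ± 3.95 and 108 ± 7.04 (exact permutation p = 0.4, adjusted p = 0.65), and the groups overlapped. Without tau 1 the difference of the means, tau minus control, was -0.763 copies, against -4.83 with it.

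**Figure D2:**
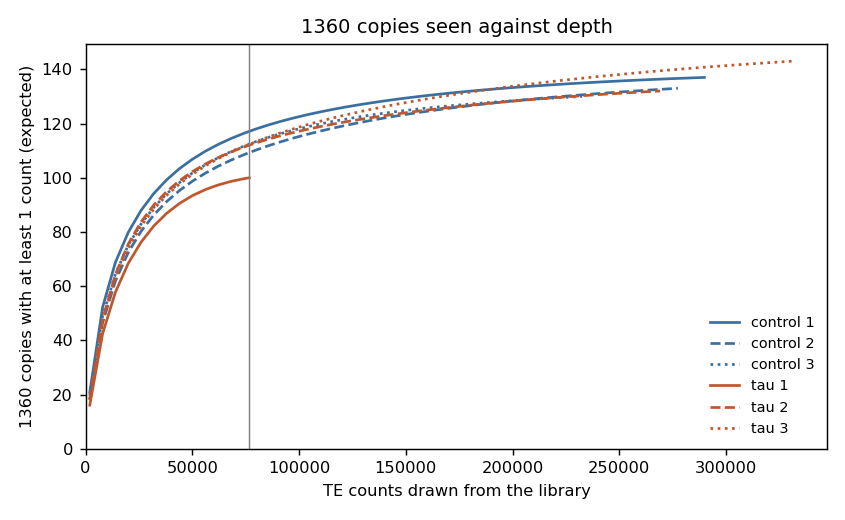
The horizontal axis gives the number of TE counts drawn from a library, and the vertical axis the number of hoppel copies expected to have at least 1 count. Each line is a library, blue for control and orange for tau, and the grey vertical line marks the 76721 counts of tau 1. Tau 1 lies lowest, at 100 copies, while the other libraries run together, at 109 to 117 copies at the grey line.

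Part of the copies had counts in a single genotype. Counts only in control libraries were found for 16 copies and only in tau libraries for 15. These numbers were not set to equal depth, and tau 1 was shallow. The like numbers over all insertions were not counted, so nothing particular to hoppel is read from them. All but 4 of these copies had under 10 counts in total. The 4 were FBti0020423, with 149 counts in control, FBti0019969, with 21, 0 and 13 counts in control 1, 2 and 3, FBti0019770, whose 31 counts all lay in tau 3, and FBti0020017, with 0, 15 and 5 counts in tau 1, 2 and 3. The last 3, named after their values were seen, each had at least 1 library at 0 in the genotype that showed them, and none of the 3 was tested.

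A small part of the copies gave most of the reads. The copy FBti0020434 alone held 16.0% of all hoppel counts, the 5 most counted copies 31.8%, the 12 most counted 48.7%, and 68 copies 90% of them. Copies with 100 or more counts in total numbered 42, those with 10 to 99 counts 86, and those with 1 to 9 counts 46. The 46 least counted together held 0.893% of the counts.

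The copy FBti0020434 had 620, 540 and 469 counts in control and 176, 553 and 731 in tau. In CPM these were 2100, 1949 and 1963 in control and 2360, 2024 and 2277 in tau. Tau 1 and tau 3 were above all controls, and tau 2 was within their range. The means were 2004 ± 83.2 and 2221 ± 175 CPM (SD, n = 3), and the log2 fold change of 0.15 (95% interval -0.12 to 0.41) did not pass in edgeR's test over all insertions (adjusted p = 0.554). Within the family its share was 14.6%, 15.4% and 14.8% of hoppel counts in control 1, 2 and 3, and 20.2%, 16.5% and 17.6% in tau 1, 2 and 3. The exact binomial 95% intervals of control 2 (14.2% to 16.7%) and tau 2 (15.3% to 17.8%) overlapped. All 3 tau shares were above all control shares, with means of 15.0% ± 0.408 and 18.1% ± 1.86 (exact permutation p = 0.1, the smallest possible, adjusted p = 0.325). The difference was 3.13 percentage points, and 2.10 without the shallow tau 1. This share was compared after the counts had been seen. When the counts of each library were scaled to its own hoppel total, the log2 fold change of FBti0020434 was 0.27 (adjusted p = 0.327, with a range of 0.221 to 0.843 over all alternatives).

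The evenness of the family moved with that share. The effective number of copies, the inverse of the summed squared shares, was 26.9, 24.9 and 26.3 in control 1, 2 and 3 and 17.8, 24.0 and 21.9 in tau 1, 2 and 3. All tau values were below all control values (exact permutation p = 0.1, adjusted p = 0.325), with tau 1 far lowest, and the part of depth in this was not tested. The squared share of FBti0020434 is the largest term of the sum in every library. The effective number thus largely restates that share and is not a separate result. The number of copies needed to hold 50% of the hoppel counts was 14, 12 and 13 in control and 10, 13 and 12 in tau, and here the groups overlapped (exact permutation p = 0.5, adjusted p = 0.722).

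After FBti0020434, the copy with the most counts was FBti0020422, with 262, 179 and 161 counts in control and 37, 166 and 201 in tau. Its level was 736 ± 132 CPM in control and 577 ± 70.4 in tau, with groups that did not overlap, a log2 fold change of -0.35 and an adjusted p of 0.409. Without control 1 the log2 fold change was -0.19. The other 10 of the 12 copies with the highest mean CPM had overlapping groups, with log2 fold changes from -0.44 for FBti0060854 to 0.12 for FBti0020393. Among them FBti0019613 had 92, 93 and 71 counts in control and 24, 88 and 98 in tau, which is 315 ± 19.4 and 316 ± 9.64 CPM. Equally flat was FBti0059678, with 302 ± 14.4 and 306 ± 22.7 CPM. The 95% intervals of their log2 fold changes were -0.39 to 0.41 and -0.40 to 0.43. The copies FBti0019780, FBti0061716, FBti0020404, FBti0019502, FBti0059650 and FBti0019905 had log2 fold changes of -0.13, -0.06, 0.03, -0.05, -0.28 and 0.03. For FBti0019780, FBti0061716, FBti0020404, FBti0019613, FBti0059678, FBti0019502 and FBti0019905 the sign changed with the scaling or with a library left out. The level of FBti0059650 was uneven within control, at 109, 43 and 86 counts, and even in tau, at 18, 66 and 78. Its log2 fold change ran from -0.58 without control 2 to -0.13 without control 3 and -0.082 without control 1. That of FBti0020393 was 0.062 without control 1, 0.015 without tau 1 and 0.18 without tau 3.

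The third question was whether any single copy differed between genotypes. Of the 303 copies, 76 passed the low-count filter and were tested, and 227 were not. Of the 76, 1 reached the filter's level in control libraries alone, which was FBti0020423, and 1 in tau libraries alone, which was FBti0020116. None of the 76 passed at an adjusted p under 0.05 in edgeR, where 74 of all 1249 insertions tested did (5.92%). An unadjusted p under 0.05 was reached by 6 copies, 2 higher and 4 lower in tau, or 7.89% against 18.7% of all insertions tested. DESeq2 called 2 copies, both lower in tau, of 93 with an adjusted p, against 8.99% of all insertions, and the authors' deposited table lists 1 copy of 91 at an adjusted p under 0.05, against 9.53%. Log2 fold changes of the 76 tested copies were above 0 for 31 and below 0 for 45. Their median was -0.11 with quartiles of -0.51 and 0.24, and that of all insertions tested was -0.01 with quartiles of -0.40 and 0.37. Groups did not overlap for 14 of the 76 (18.4%), against 29.2% of all insertions tested. Of the 14, 6 were higher in tau, where 12.9% of all insertions tested lay apart in that direction, and 8 were lower, where 16.3% did. Both FBti0020423 and FBti0020116 are among the 14 and among the 6 with an unadjusted p under 0.05. Their direction was fixed by the filter, so these numbers are a description. FBti0020423 is also 1 of the 2 copies called by DESeq2 and the 1 copy in the authors' deposited table.

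**Figure D3:**
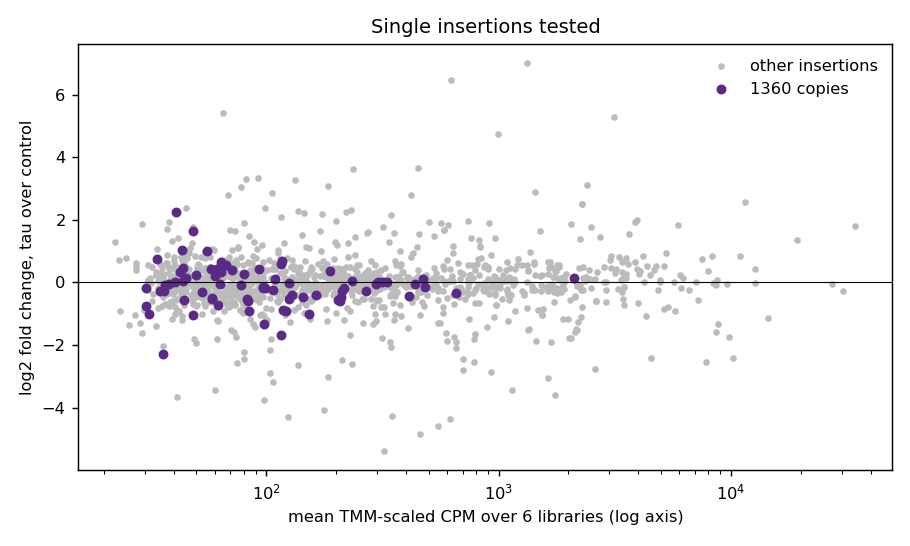
The horizontal axis is the mean CPM of an insertion over the 6 libraries (log axis) and the vertical axis its log2 fold change of tau over control. Purple points are 75 tested copies of the family and grey points the other insertions tested, without the 15 insertions, FBti0020423 among them, that had 0 counts in a whole genotype. The hoppel copies lie between -2.28 and 2.27, and the copy at the far right, FBti0020434, lies at 0.15.

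These counts rest on limited precision per copy. The 95% interval of the log2 fold change of a tested copy had a median half-width of 0.92, from 0.26 for FBti0020434 to 3.72, and for 18 of 75 copies it lay within -1 to 1. For most single copies a 2-fold difference, in at least 1 direction, was therefore not excluded at this depth. These intervals are not adjusted for the number of insertions tested, so an interval clear of no change was not enough for a call.

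The copy closest to the threshold was FBti0020423. It had 91, 18 and 40 counts in control 1, 2 and 3 and 0 in each tau library. In CPM the control libraries stood at 308, 65.0 and 167, so they differed widely among themselves. With a floor of 3 counts over the tau group, the pooled control level of the copy was at least 40.9 times that of tau. This bound covers counting error in tau only, not that in control or the spread among the control libraries. The copy entered the test only through its control libraries, so a tested copy of this kind had to be lower in tau, and its p-values are given as a description. Its adjusted p was 0.0620 in edgeR, and it passed in DESeq2 (adjusted p = 3.07e-05) and without the low-count filter (adjusted p = 0.0340), with a range of 3.07e-05 to 0.175 over all alternatives. The authors' deposited table gives it a log2 fold change of -1.01 with an adjusted p of 0.00959. The deposited fold change and the bound above are unlike measures, so their sizes are not to be set against each other. It held 0.773% of all hoppel counts, and without it the log2 fold change of the family sum was -0.06.

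Next came FBti0019637, with 64, 51 and 50 counts in control and 8, 21 and 38 in tau, or 203 ± 17.1 and 101 ± 21.5 CPM. Its libraries were even within each genotype and the groups lay apart, with a log2 fold change of -1.02 (95% interval -1.62 to -0.41, adjusted p = 0.0805). The copy FBti0019842 had 81, 33 and 32 counts in control and 5, 15 and 15 in tau. Control 1 stood far above the other controls, at 274 CPM against 119 and 134, and tau lay at 67.0, 54.9 and 46.7 CPM. Its log2 fold change was -1.68 (95% interval -2.71 to -0.67), with an adjusted p of 0.0849 in edgeR and 0.0403 in DESeq2 (range over all alternatives 0.0403 to 0.236). Without control 1 it was -1.20. The 8 copies that were lower in tau without overlap in CPM also included FBti0059779, with 32, 54 and 32 counts against 0, 23 and 21, FBti0020301, with 30, 19 and 16 against 2, 13 and 19, and FBti0019485, with 79, 60 and 65 against 6, 56 and 66. Their log2 fold changes were -1.33, -0.72 and -0.58, with adjusted p-values of 0.388, 0.334 and 0.483. Without tau 1 the log2 fold change of FBti0019485 was -0.29. The others of the 8 were FBti0020422 and FBti0062831, the latter at 224, 227 and 280.5 CPM in control and 161, 194 and 171 in tau (log2 fold change -0.47, adjusted p = 0.307), named outside the rule after its values were seen.

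Of the copies higher in CPM in every tau library, FBti0020116 had 5, 5 and 8 counts in control and 7, 24 and 13 in tau. In CPM it was at 16.9, 18.0 and 33.5 in control and 93.9, 87.9 and 40.5 in tau, so tau 3 stood close to control 3. The log2 fold change was 1.63 (95% interval 0.45 to 2.86, adjusted p = 0.127). This copy reached the low-count filter's level in tau libraries alone, so it had to be higher in tau. Its interval and p-value are given as a description. The copy FBti0062777 had 11, 9 and 4 counts against 3, 15 and 25 (log2 fold change 1.04, adjusted p = 0.245). The copy FBti0020207 had 12, 0 and 0 counts in control and 4, 21 and 24 in tau, a log2 fold change of 2.27 whose 95% interval ran from -0.53 to 5.14 (adjusted p = 0.363). It hung on control 1: without that library the copy was at 0 in control and passed (adjusted p = 0.0457, range over all alternatives 0.0457 to 0.658). In that fit it entered the test only through tau libraries and had to be higher, so its pass is a description. The copy FBti0020415 had 14, 16 and 14 counts against 5, 28 and 22 (log2 fold change 0.57, adjusted p = 0.341, and 0.31 without tau 2).

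**Figure D4:**
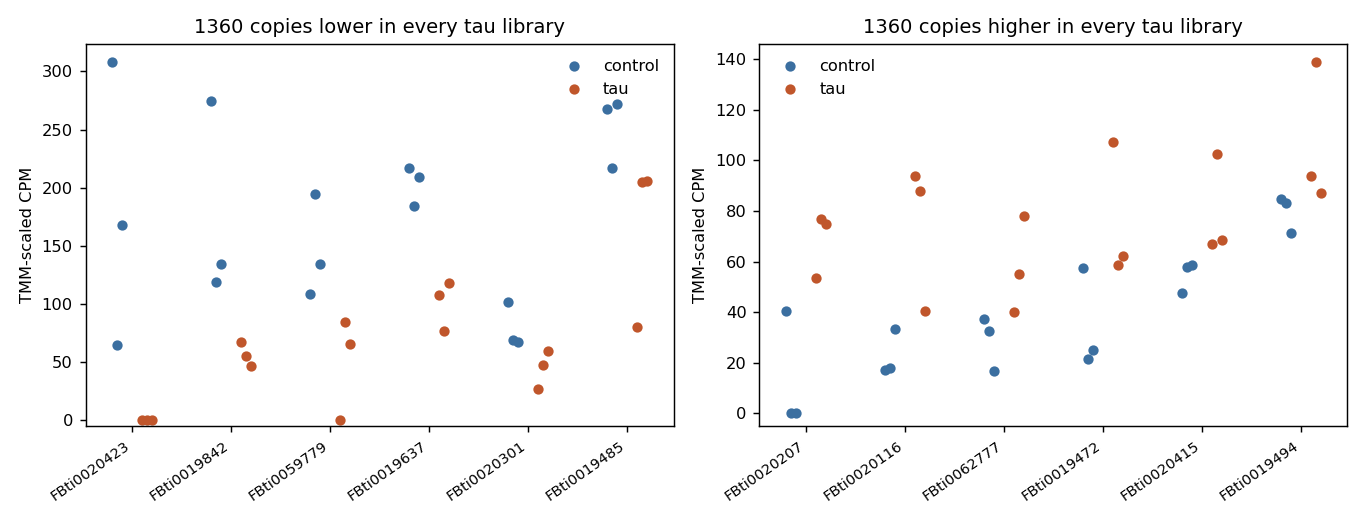
Points are single libraries, blue for control and orange for tau, and the vertical axes give TMM-scaled CPM. On the left are the 6 copies with the largest negative and on the right the 6 with the largest positive log2 fold changes among tested copies whose groups do not overlap. None passed the threshold in edgeR with all libraries; FBti0020423 is at 0 CPM in all 3 tau libraries and at 65.0 to 308 CPM in control.

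The symbols of 4 copies carry a gene's name, and all 4 genes lie on chromosome 4 in the Release 6 assembly: Syt7, a synaptotagmin of the family of calcium sensors of vesicle fusion, Eph, a receptor tyrosine kinase of axon guidance, ci (cubitus interruptus), the transcription factor of the Hedgehog pathway, and PlexB, a semaphorin receptor. The copy in the name of Syt7 (FBti0020414) had 53, 32 and 34 counts in control and 11, 29 and 28 in tau (log2 fold change -0.40, adjusted p = 0.555). The copy of Eph (FBti0019494) had 25, 23 and 17 against 7, 38 and 28, with each tau library above each control in CPM (0.43, adjusted p = 0.447, and 0.17 without tau 2). The copy of ci (FBti0019472) had 17, 6 and 6 against 8, 16 and 20, also without overlap in CPM (1.01, adjusted p = 0.348, and 1.60 without control 1). The copy of PlexB (FBti0020405) had 14, 8 and 13 against 3, 16 and 11 (0.05, adjusted p = 0.974). The signs thus differed among the 4, and none of them passed. Levels of the 4 genes themselves were not analysed here.

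Other DNA transposons were set beside it. In a list of 19 further families written from general knowledge of fly DNA transposons with terminal inverted repeats, 2 fell, 0 rose and 17 did not pass in edgeR, and 9 had log2 fold changes below 0 and 10 above. Among all 116 families 16 were called lower and 20 higher, or 31.0% in either direction. The median of the list was 0.01, as was that of all 116 families. The class of Xanthias, a single insertion in the list, is not certain. The families of the list that fell were transib4 (-2.23, adjusted p = 3.17e-08) and pogo, a Tc1/mariner-type element (-0.36, adjusted p = 0.0429). The call of pogo was lost without control 2, tau 1, tau 2 or tau 3. With copia left out of the library totals H (hobo) and S were called higher and pogo was not called, where 43 of all 116 families were called.

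**Figure D5:**
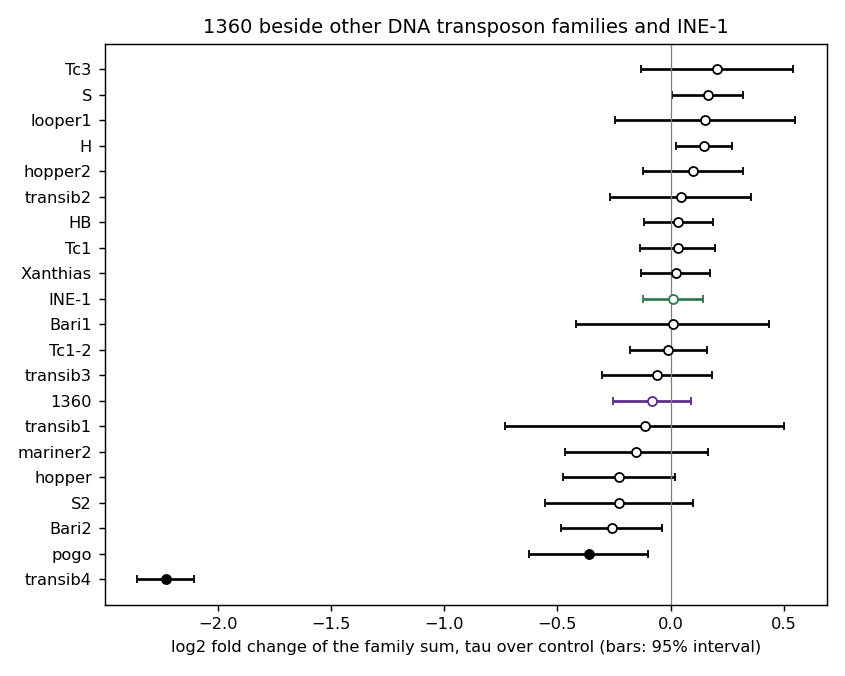
The horizontal axis is the log2 fold change of a family sum, tau over control, with its 95% interval as a bar. Filled points passed the threshold in edgeR over all 116 families; purple marks hoppel and green INE-1. The interval of hoppel, -0.25 to 0.09, includes 0, and only transib4 lies below -1.

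Ratios within a library compare hoppel with another family without any size factor. Against H, a mobile hAT element, the log2 ratio of counts was 1.20, 0.87 and 1.06 in control and 0.73, 0.83 and 0.87 in tau. Tau 3 equalled control 2 to the second decimal, and the difference of the means was -0.23 (exact permutation p = 0.2, adjusted p = 0.52). Against INE-1, a short element without coding capacity, the log2 ratio was -0.86, -1.07 and -0.97 in control and -1.06, -1.07 and -1.04 in tau, a difference of -0.09 (exact permutation p = 0.4, adjusted p = 0.65). Against transib4, a family picked because its fall was known, it was -0.32, -0.51 and -0.38 in control and 1.70, 1.74 and 1.79 in tau, a description of the 2 families' different course. Of the 2234 INE-1 copies 947 had a count (42.4%), against 57.4% of the hoppel copies.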

How the data were processed

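The deposited table gives raw read counts per insertion, whole numbers that were not normalised. Per the series text, the authors extracted reads with sortmerna against the TEs of FlyBase release 6.12, and the submitters' processing notes name Trimmomatic 0.36 along with DESeq2 1.14.1. For the counter and its strand setting, the sources used here give nothing. The authors' deposited table also holds a mean normalised count (a signal set by their size factors, recovered here from it), p-values, adjusted p-values and a log2 fold change. Insertion names came from a table of FlyBase symbols, which named 5390 of 5392 insertions in 123 families. The 2 without a name held 0 counts.

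Insertions and family sums were each tested over the whole table with edgeR 4.0.16 in R 4.3.3 (quasi-likelihood F-test, TMM factors, filterByExpr defaults, two-sided, Benjamini-Hochberg adjustment, threshold 0.05), and with DESeq2 1.42.0 as an alternative. The code was tested on simulated data. Shares, ratios and numbers of copies were set against each other in exact permutation tests, two-sided, with 3 libraries per group. Named copies were those called, the 12 with the highest mean CPM, the 6 largest rises and falls without overlap, and FBti0020423. Members, lists and tests were chosen with earlier results of these data known. No lengths or chromosome arms of the copies were used here, so sums by arm, a choice of copies by length, and a match of the small RNA libraries to hoppel were not analysed.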

Additional observations from a re-analysis of the deposited data

How the results depend on the processing

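The family's log2 fold change kept its sign and did not pass in 15 of 16 alternatives, and was 0.0037 with library totals without copia. It ran from -0.13 to -0.02 with a library left out and was -0.17 with library totals (unadjusted p = 0.0460, adjusted p = 0.114). Its share of TE counts differed by 0.00046 percentage points with copia left out, and by -0.20 to -0.10 with a library left out. With copia left out of the totals the median of all insertions moved from -0.01 to 0.12.

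Called copies numbered 1 of 174 without the low-count filter (FBti0020423), where 1.75% of all insertions were called, and 2 of 93 in DESeq2, against 8.99%. With a library left out they numbered 0 to 1, the 1 being FBti0020207 of 82 tested without control 1, against 2.42% of all insertions, and over the 6 libraries left out 1.18% to 3.83% of all insertions were called. Without control 1, FBti0020207 entered the test only through tau libraries, so it could only be called higher. The list of other DNA transposon families held 1 to 3 calls with a library left out, and 1 without control 2, tau 1 or tau 3. Among all 116 families 27 to 35 were called with a library left out. The difference in copies at equal depth ran from -6.94 to -0.763 with a library left out.

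Of 24 named copies, 17 kept their sign in all 14 settings. Under library totals, log2 fold changes became -0.014 for FBti0020404, -0.034 for FBti0019613, -0.024 for FBti0059678 and -0.011 for FBti0019905. With the authors' size factors they became -0.0011 for FBti0020404, -0.024 for FBti0019613 and -0.0090 for FBti0059678. Without a filter they were -0.016 for FBti0019613, -0.0034 for FBti0059678 and -0.0010 for FBti0019905. DESeq2 gave -0.0039 for FBti0019613 and -0.014 for FBti0019905. Without copia they were 0.061 for FBti0061716 and 0.085 for FBti0019502, and scaled to the hoppel total 0.00039 for FBti0019780, 0.049 for FBti0061716 and 0.058 for FBti0019502. With a library left out they ran from -0.23 to 0.014 for FBti0019780, -0.15 to 0.052 for FBti0061716, -0.092 to 0.17 for FBti0020404, -0.039 to 0.061 for FBti0019613, -0.036 to 0.071 for FBti0059678, -0.24 to 0.19 for FBti0019502 and -0.21 to 0.23 for FBti0019905. The causes were not tested.

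Replicate numbers are shared by the genotypes, and whether they pair the libraries could not be settled from the counts. Over all insertions tested, same-numbered deviations from the group means correlated at -0.03, 0.06 and -0.01. Differently numbered deviations correlated at -0.06 to 0.06. With the replicate block the family was at -0.08 (adjusted p = 0.511), FBti0020404 at -0.00089, 0 copies were called, and calls among all insertions went from 74 to 9. Scaling to the hoppel total, leaving FBti0020434 or FBti0020423 out of the family sum (-0.13 and -0.06) and keeping only copies seen in all 6 libraries (-0.04) were chosen after seeing the data. Sums by chromosome arm and small RNA entries were not run. The shallow tau 1 limits what single copies can show.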

Other observations

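The profile of counts over the 174 copies with a count was alike between libraries. Pearson's r of log2(CPM + 1) across copies, which are not independent replicates, was 0.817 to 0.829 between control libraries and 0.822 between tau 2 and tau 3. Between genotypes, tau 1 left out, it was 0.752 to 0.793, and with tau 1 in the pair, of either genotype, 0.692 to 0.741. These values are a description of libraries that differ in depth.

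Some copies had 0 counts in a library of a genotype in which another library showed them. There were 4 such cases with at least 10 counts expected from the other libraries of the genotype: FBti0020225 and FBti0019969 in control 2, and FBti0019634 and FBti0019770 in tau 2. For FBti0019770 the expected count rested on tau 3 alone, since its counts were 0, 0 and 31 in tau 1, 2 and 3. The copy FBti0019634 had 4, 0 and 29 counts in tau 1, 2 and 3, where 21.8 were expected in tau 2, and FBti0020225 had 8, 0 and 16 in control, where 12.8 were expected in control 2.

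The families whose log2 CPM over the 6 libraries resembled that of hoppel most, of 115 compared, were transib3 (Pearson's r 0.840), Rt1c (0.795), roo (0.745), G3 (0.665) and Circe (0.641). With 6 libraries of 2 genotypes these values are a description, and the log2 fold changes of these families ran from -0.32 for G3 to -0.01 for Rt1c.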
